A study of Homo sapiens with 9 samples.

Results

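TREM2, ARHGAP25, MRGPRX3, TRAF3IP3, BDKRB2, TMEM265 and FKBPL were examined as genes with little or no signal in vector cells and a raised signal after induction of an isoform of p63. These 7 of the 41857 Ensembl gene IDs in the files were picked by name for that pattern, and each was found by matching its ID to its symbol. Their differences between the groups are therefore described and not tested. The 9 libraries came from poly(A) RNA of MCF10A, an immortal line of human breast epithelium that does not form tumours, whose genotype is labelled WT. Cells expressed human deltaNp63alpha, human deltaNp63beta or vector only, with 3 biological replicates of each. All 9 cultures, vector included, had received 500 ng/mL doxycycline for 24 h. The labels do not say whether each construct is 1 clone or a pool, nor which promoter drives it.

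The transcription factor p63 belongs to the p53 family and maintains the basal layer of stratified epithelia and of the mammary gland. The deltaN forms lack the N-terminal transactivation domain of the longer forms. The alpha form ends in a sterile alpha motif and an inhibitory domain, which the shorter beta form lacks. Most of the genes examined are known from other cell types. TREM2 is a surface receptor of macrophages and microglia that signals through the adaptor TYROBP, BDKRB2 is the B2 receptor for bradykinin, and MRGPRX3 is a Mas-related receptor of the family found in sensory neurons. ARHGAP25 is a GTPase-activating protein for Rac that is known from blood cells. TRAF3IP3 binds TRAF3, an adaptor of innate immune signalling, and is known from lymphocytes. FKBPL is a divergent FK506-binding protein that interacts with HSP90.

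The 3 promoters below belong to 3 of the 4 genes whose deltaNp63beta and deltaNp63alpha libraries did not overlap, and 1 of them holds an exact p53-family half-site. They are RefSeq windows on GRCh38.p14 of 250 bases before to 50 bases after a start site. Capitals mark the half-site, which was searched on both strands and begins at position -162 from the start site in the TRAF3IP3 window. TRAF3IP3 has 3 such windows, and only the one at chr1:209768315-209768614 on the plus strand holds the motif. TREM2 is at chr6:41163067-41163366 on the minus strand and BDKRB2 at chr14:96204589-96204888 on the plus strand.
TREM2: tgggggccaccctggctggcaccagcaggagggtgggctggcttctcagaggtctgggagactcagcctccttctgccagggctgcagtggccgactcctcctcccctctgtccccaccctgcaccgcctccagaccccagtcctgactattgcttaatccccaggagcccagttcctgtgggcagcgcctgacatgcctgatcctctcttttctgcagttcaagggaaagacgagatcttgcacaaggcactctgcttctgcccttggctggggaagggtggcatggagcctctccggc
BDKRB2: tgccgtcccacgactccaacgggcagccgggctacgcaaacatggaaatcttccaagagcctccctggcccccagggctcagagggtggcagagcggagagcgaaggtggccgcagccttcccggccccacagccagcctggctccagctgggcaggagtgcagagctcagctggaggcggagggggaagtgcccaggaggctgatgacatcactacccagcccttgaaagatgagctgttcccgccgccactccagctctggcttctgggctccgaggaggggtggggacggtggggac
TRAF3IP3: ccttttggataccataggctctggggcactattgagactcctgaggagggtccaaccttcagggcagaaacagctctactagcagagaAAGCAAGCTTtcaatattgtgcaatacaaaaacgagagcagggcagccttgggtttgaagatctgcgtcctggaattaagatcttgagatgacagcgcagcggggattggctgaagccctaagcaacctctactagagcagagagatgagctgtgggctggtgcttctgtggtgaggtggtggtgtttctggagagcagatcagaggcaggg
Windows were found for 4 of the 7 genes (TREM2, BDKRB2, TRAF3IP3 and ARHGAP25), 8 in all, and the half-site was in 1 of the 8. Of all 35116 promoter windows searched the same way, 2329 (6.63%) held it. The match is a description of letters and shows no binding. No window is shown for MRGPRX3, TMEM265 and FKBPL.

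For TMEM265, MRGPRX3 and TRAF3IP3 the sequence bears on how a value can be read, because fragments are assigned by sequence. Sequences of TMEM265 and MRGPRX3 are shown, and TRAF3IP3 shares 27.2% of its 31-base words with C1orf74. The first set is the start of the TMEM265 coding sequence, bases 1 to 180 of 324, on chromosome 16 (GRCh38, chr16:30741744-30743796, plus strand, spliced). All of it, and the whole 995-base transcript, is also contained in a transcript of AC106886.5.
TMEM265: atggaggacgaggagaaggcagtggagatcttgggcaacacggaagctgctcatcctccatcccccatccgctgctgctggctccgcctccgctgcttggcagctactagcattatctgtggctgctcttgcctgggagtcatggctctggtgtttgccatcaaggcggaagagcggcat
The next set is a stretch of MRGPRX3 (bases 776 to 912 of its coding sequence, chr11:18137978-18138114, plus strand) beside the same bases of MRGPRX4 (chr11:18174032-18174168, plus strand). Capitals mark a run of 97 bases that is identical in both.
MRGPRX3: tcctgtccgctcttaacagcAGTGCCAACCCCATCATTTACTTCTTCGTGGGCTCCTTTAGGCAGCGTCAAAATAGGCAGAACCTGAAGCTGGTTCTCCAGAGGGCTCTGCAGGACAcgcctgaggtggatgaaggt
MRGPRX4: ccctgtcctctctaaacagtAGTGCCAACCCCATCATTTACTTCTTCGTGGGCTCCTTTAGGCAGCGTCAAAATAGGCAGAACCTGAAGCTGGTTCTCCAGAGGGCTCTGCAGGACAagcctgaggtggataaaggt
Here the unit of sharing was the 31-base word, counted on both strands over the GENCODE 29 transcripts of a gene. The share of a gene's words found in any other gene was 0% of 1117 for TREM2, 0% of 1315 for FKBPL, 3.08% of 5710 for ARHGAP25, 6.22% of 6769 for BDKRB2, 22.3% of 1705 for MRGPRX3, 27.4% of 8077 for TRAF3IP3 and 100% of 965 for TMEM265. The median over 13792 tested genes was 4.48%. Of the 41857 IDs in the files, 35377 have a GENCODE 29 record, and the others could not enter this count. The unnamed ID set beside FKBPL below is among those others, so the 0% for FKBPL does not cover it.

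Values are taken to be the authors' normalized estimated counts, from the processing tools named. The sources used here do not say whether they were corrected for transcript length, so levels are compared between libraries and not between genes. Group values are mean ± SD of 3 libraries, and differences are log2(value + 1) ± SE from a limma fit over all 9 libraries. Library totals lay between 22.5 and 23.2 M (mega) and the estimated depth before normalization between 20.3 and 24.4 M. A gene was called when its Benjamini-Hochberg adjusted p from limma was under 0.05. All 7 genes passed the filter (3 or more libraries at 10 or above), BDKRB2 in all 9 libraries and the other 6 through the libraries in which they were high. Gene positions are those of GENCODE 29 on GRCh38. TP63 RNA, which includes the transgene, was 6123 ± 1470 in deltaNp63alpha, 5257 ± 1312 in deltaNp63beta and 302.3 ± 38.1 in vector. It did not pass between the isoforms (log2 -0.22 ± 0.21, adjusted p = 0.479). In bulk RNA, fewer cells that express a gene and less RNA per cell cannot be told apart.

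Of the 15108 genes tested, 8.13% were called higher with deltaNp63alpha than in vector (14.5% in either direction). With deltaNp63beta 21.8% were called higher (41.3% in either direction). With deltaNp63alpha the libraries of 5 of the 7 genes lay above vector with no overlap, as for 16.7% of all genes. With deltaNp63beta those of all 7 did, against 26.2%. The genes were chosen for these contrasts and nothing is read from these counts. Both comparisons use the same vector libraries. The plot of the level of each gene in the 9 libraries shows 4 shapes. TREM2, ARHGAP25 and MRGPRX3 were high with both isoforms, BDKRB2 was high with both and higher with beta, TRAF3IP3 and TMEM265 were high with beta, and FKBPL was high in 4 separate libraries of the isoforms.

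**Figure D1:**
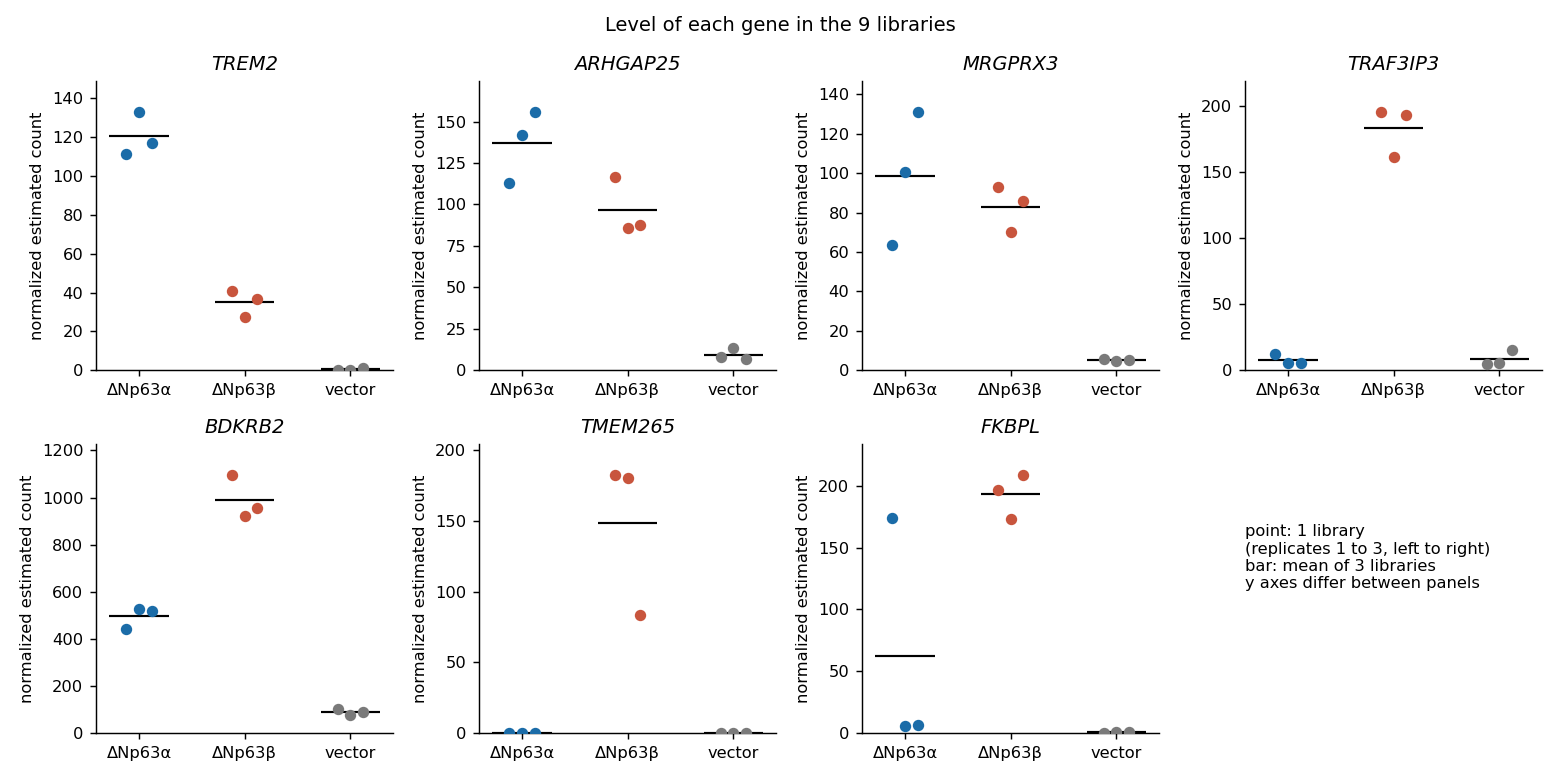
Normalized estimated count of the 7 genes (y axis, scaled per panel) in the deltaNp63alpha, deltaNp63beta and vector libraries (x axis); points are single libraries and bars the means of 3. BDKRB2 averaged 86.8 in vector and was not near 0 there, and FKBPL was high in 1 of the 3 deltaNp63alpha libraries.

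TREM2 (ENSG00000095970, chr6:41158506-41163186, minus strand, protein coding) had its highest level with the alpha form. Its values were 111.3, 132.9 and 117.0 in the deltaNp63alpha libraries, 40.9, 27.5 and 36.4 in the deltaNp63beta libraries and 0, 0 and 1.17 in the vector libraries. No 2 groups overlapped, and alpha stood above beta, which stood above vector. The mean was 120.4 ± 11.2 in deltaNp63alpha, 34.9 ± 6.83 in deltaNp63beta and 0.390 ± 0.676 in vector. The log2 differences were 6.55 ± 0.40 for deltaNp63alpha against vector and 4.78 ± 0.40 for deltaNp63beta against vector. Of deltaNp63beta against deltaNp63alpha the difference was -1.77 ± 0.40, a ratio of means of 0.290. With 2 vector libraries listed at 0, no ratio to vector is given, and with a pseudocount of 0.1 the log2 differences from vector were 9.01 with deltaNp63alpha and 7.21 with deltaNp63beta.

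BDKRB2 (ENSG00000168398, chr14:96204679-96244166, plus strand, protein coding) had the opposite order of isoforms. It had 441.0, 527.5 and 519.4 in deltaNp63alpha, 1097, 921.5 and 955.6 in deltaNp63beta and 99.5, 74.1 and 86.8 in vector. No 2 groups overlapped. All vector libraries were well above 0, which is not what its selection as a near-silent gene states. The mean was 496.0 ± 47.8 in deltaNp63alpha, 991.3 ± 93.0 in deltaNp63beta and 86.8 ± 12.7 in vector. The ratio of means to vector was 5.71 with deltaNp63alpha and 11.4 with deltaNp63beta, with log2 differences of 2.51 ± 0.13 for alpha and 3.51 ± 0.13 for beta. The level with deltaNp63beta was 1.999 times that with deltaNp63alpha (log2 1.00 ± 0.13).

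MRGPRX3 (ENSG00000179826, chr11:18120955-18138480, plus strand, protein coding) had 63.7, 100.5 and 131.1 in deltaNp63alpha, 93.2, 69.9 and 85.9 in deltaNp63beta and 5.79, 4.51 and 5.28 in vector. Every isoform library was above every vector library, while the isoforms overlapped. The ratio to vector was 18.9 for deltaNp63alpha and 16.0 for deltaNp63beta, with log2 differences of 3.95 ± 0.30 for alpha and 3.76 ± 0.30 for beta. Of deltaNp63beta against deltaNp63alpha the log2 difference was -0.19 ± 0.30, smaller than its SE. Leaving out 1 library at a time moved it between -0.47 and 0.04, furthest without deltaNp63alpha replicate 1. The spread of the deltaNp63alpha libraries (SD 33.7) was wider than that of the deltaNp63beta libraries (SD 11.9).

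ARHGAP25 (ENSG00000163219, chr2:68679601-68826833, plus strand, protein coding) had 112.8, 142.0 and 155.8 in deltaNp63alpha, 116.4, 85.7 and 87.7 in deltaNp63beta and 8.18, 13.4 and 6.78 in vector. The isoform libraries all lay above the vector libraries, and the isoforms overlapped through deltaNp63beta replicate 1 and deltaNp63alpha replicate 1. The mean was 136.9 ± 22.0 in deltaNp63alpha, 96.6 ± 17.2 in deltaNp63beta and 9.46 ± 3.51 in vector. These gave ratios to vector of 14.5 with deltaNp63alpha and 10.2 with deltaNp63beta, and log2 differences of 3.76 ± 0.27 for alpha and 3.26 ± 0.27 for beta. Between the isoforms, deltaNp63beta against deltaNp63alpha, the log2 difference was -0.50 ± 0.27.

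TRAF3IP3 (ENSG00000009790, chr1:209756032-209782320, plus strand, protein coding) was high with 1 isoform. Its values were 11.9, 5.17 and 5.31 in deltaNp63alpha, 195.5, 161.8 and 193.6 in deltaNp63beta and 5.05, 5.77 and 15.0 in vector. The deltaNp63alpha and vector libraries overlapped, and all deltaNp63beta libraries stood above both. For deltaNp63beta the mean of 183.6 ± 18.9 was 21.3 times that in vector (8.62 ± 5.57) and 24.6 times that with deltaNp63alpha (7.47 ± 3.85). The log2 differences were -0.13 ± 0.44 for deltaNp63alpha against vector, 4.40 ± 0.44 for deltaNp63beta against vector and 4.53 ± 0.44 for deltaNp63beta against deltaNp63alpha. Of its 31-base words, 2196 (27.2%) also lay in C1orf74, which overlaps it on the opposite strand. C1orf74 had 490.3 ± 35.6 in deltaNp63alpha, 1689 ± 149 in deltaNp63beta and 415.6 ± 19.1 in vector, so its level moved in the same direction with beta. No source used here says that strand was used in counting, and whether fragments of C1orf74 are part of the TRAF3IP3 value was not tested.

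TMEM265 (ENSG00000281991, chr16:30740381-30744281, plus strand, protein coding) was listed at 0 in all 3 deltaNp63alpha and all 3 vector libraries, and at 182.6, 180.2 and 83.3 in deltaNp63beta. Thus the beta libraries stood apart from all others, with 1 of them well below the other two. No ratio is given against a group at 0, and the fitted log2 difference of 7.14 ± 0.62 depends on the pseudocount. AC106886.5, whose transcripts contain the printed TMEM265 sequence, had 904.3, 977.8 and 966.2 in deltaNp63alpha, 711.0, 1023 and 1087 in deltaNp63beta and 1176, 1057 and 850.0 in vector. SRCAP, which shares 299 words (30.98%) with TMEM265 and encodes a chromatin remodeller, averaged 459.6 ± 9.67 in deltaNp63alpha, 404.5 ± 58.1 in deltaNp63beta and 516.2 ± 75.4 in vector. Summed over the 3 genes, the libraries held 1356, 1448 and 1423 in deltaNp63alpha, 1240, 1666 and 1575 in deltaNp63beta and 1664, 1658 and 1309 in vector. These sums overlapped between all groups. The log2 difference of the sum was -0.12 ± 0.12 for deltaNp63alpha against vector, -0.05 ± 0.12 for deltaNp63beta against vector and 0.07 ± 0.12 for deltaNp63beta against deltaNp63alpha. The mean of TMEM265 in deltaNp63beta (148.7) was smaller than the SD of the sums in deltaNp63beta (224.3) and in vector (203.3), so the overlap of the sums does not show whether TMEM265 differed.

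FKBPL (ENSG00000204315, chr6:32128707-32130291, minus strand, protein coding) varied within the deltaNp63alpha group. It had 174.1, 5.69 and 6.13 in deltaNp63alpha, 196.6, 173.3 and 208.9 in deltaNp63beta and 0, 1.11 and 1.04 in vector. The first deltaNp63alpha library lay within the range of the deltaNp63beta libraries, and the other two lay near the vector libraries. The log2 difference of deltaNp63alpha against vector was 3.64 ± 1.02, and 2.09 without deltaNp63alpha replicate 1. It was 6.89 ± 1.02 for deltaNp63beta against vector. With a pseudocount of 0.1 the log2 differences from vector were 5.16 with deltaNp63alpha and 8.54 with deltaNp63beta. Of deltaNp63beta against deltaNp63alpha it was 3.25 ± 1.02, and 4.81 without deltaNp63alpha replicate 1.

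A gene ID without a symbol, ENSG00000230907, ran opposite to FKBPL. It was picked after the values were seen, among 1131 IDs without a symbol and with a value of at least 20. Its correlation with FKBPL was the most negative of these (Pearson r = -0.98 on the untransformed values over the 9 libraries). Its values were 5.94, 198.2 and 210.5 in deltaNp63alpha, 4.91, 4.10 and 8.83 in deltaNp63beta and 190.2, 178.3 and 169.1 in vector. Where FKBPL was high it was low, and the reverse, in each of the 9 libraries. Their sum was 180.1, 203.9 and 216.6 in deltaNp63alpha, 201.5, 177.4 and 217.7 in deltaNp63beta and 190.2, 179.4 and 170.2 in vector. The groups of summed values overlapped. The log2 difference of the sum was 0.15 ± 0.13 for deltaNp63alpha against vector, 0.14 ± 0.13 for deltaNp63beta against vector and -0.01 ± 0.13 for deltaNp63beta against deltaNp63alpha. Whether both IDs count the same fragments was not tested, and the sequence behind the unnamed ID was not analysed here. The stacked plot of the summed genes shows the totals beside the shares of FKBPL and TMEM265.

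**Figure D2:**
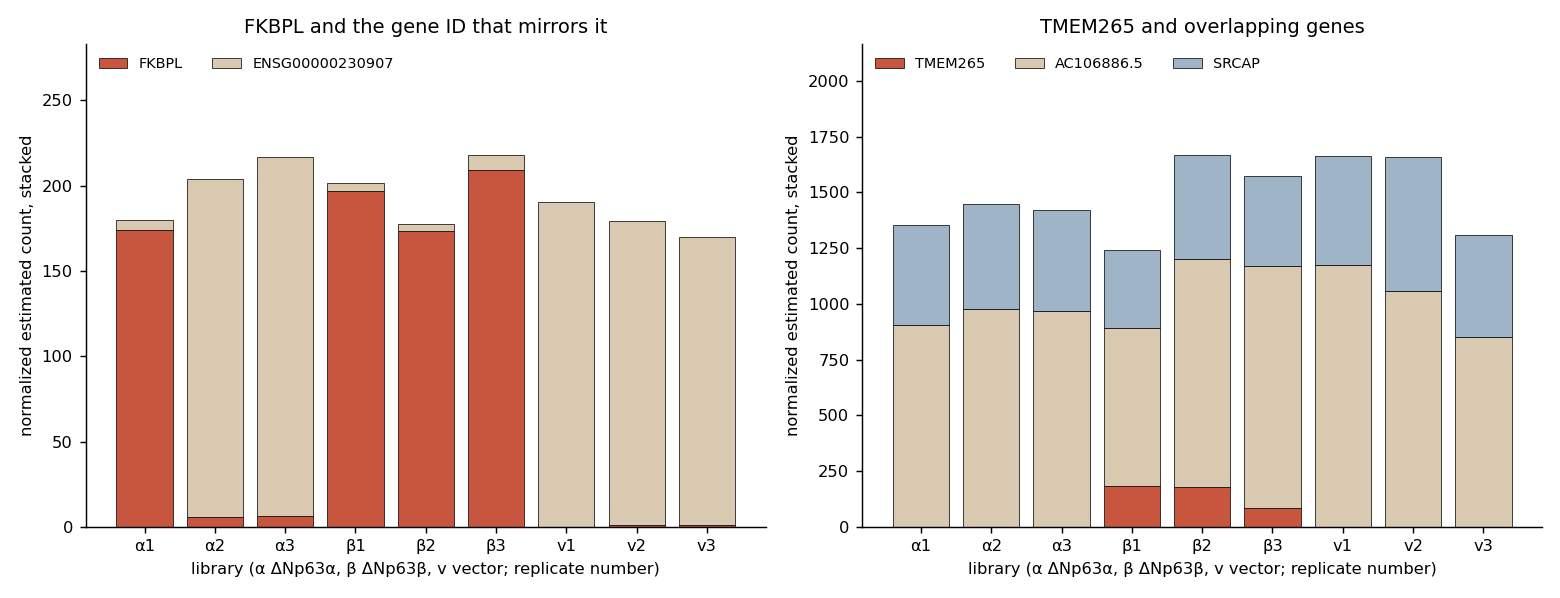
Stacked normalized estimated counts (y axis) per library (x axis) of FKBPL with ENSG00000230907 (left) and of TMEM265 with AC106886.5 and SRCAP (right). The FKBPL sum lay between 170.2 and 217.7 in the 9 libraries although FKBPL alone lay between 0 and 208.9.

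Between the isoforms, 17.4% of all genes tested were called higher with deltaNp63beta and 15.5% lower, 32.9% in either direction. The isoform libraries did not overlap for TRAF3IP3, BDKRB2 and TMEM265, higher with beta (22.9% of genes tested), or for TREM2, lower with beta (21.9%). ARHGAP25, MRGPRX3 and FKBPL overlapped. The genes were chosen for their values in these same libraries, so nothing is read from these counts either. From the largest share with beta to the largest with alpha the order of the fitted log2 differences was TMEM265, TRAF3IP3, FKBPL, BDKRB2, MRGPRX3, ARHGAP25 and TREM2.

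Within the groups, the libraries were also ordered, and the rule did not use that order. TP63 was 4426, 6983 and 6961 in deltaNp63alpha and 6719, 4183 and 4870 in deltaNp63beta, so deltaNp63alpha replicate 1 had the lowest level of its group and deltaNp63beta replicate 1 the highest. TREM2, ARHGAP25, MRGPRX3, BDKRB2 and TRAF3IP3 all had the order of TP63 in the deltaNp63beta libraries. The first 4 of them also had their lowest deltaNp63alpha value in replicate 1. Among the other 15107 tested genes 14.9% had the beta order of TP63 and 4.65% had both features. TMEM265 and FKBPL had neither. This was noticed after the values were seen, and whether the level of the transgene is behind it was not tested.

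The genes whose levels followed each of the 7 most closely over the 9 libraries are a description with no p, since all points share the same libraries. Group means were not removed, so r includes the differences between groups for which the 7 genes were chosen. TP63 differs between isoform and vector groups by design, and no separate link to it is read from r. For ARHGAP25 the closest was TP63 itself (Pearson r = 0.99, n = 9), followed by THSD1 and PLS3. For MRGPRX3 they were CBLC, TP63 and EFNB1, at r of 0.99 to 1.00. TREM2 ran with LIMA1, an actin-binding protein, COL17A1, the hemidesmosomal collagen XVII, and CFAP251. Levels of COL17A1 averaged 17160 in deltaNp63alpha, 12990 in deltaNp63beta and 7688 in vector. BDKRB2 ran with RAB38, RASSF6 and SLC7A5, and TRAF3IP3 with HK2 (hexokinase 2), DBNDD2 and PPA1. TMEM265 ran with S100P, ID3 and IFITM3. FKBPL had the loosest likeness, 0.98 with SPCS3. Across the 9 libraries TREM2, ARHGAP25 and MRGPRX3 correlated with each other at 0.96 to 0.98, and TRAF3IP3 with TREM2 at 0.24.

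Genes beside the 7 were not used by the rule. Some of them share 31-base words with a member, C1orf74, AL355102.2 and SRCAP among them, so their values may not be independent of it. Within 100 kb 62 IDs and 26 tested genes were considered. Of the 26, 1 was called higher and 0 lower with deltaNp63alpha, and 6 higher and 8 lower with deltaNp63beta (8.13% and 6.37% of all genes for alpha, 21.8% and 19.5% for beta). At an unadjusted limma p under 0.05, 1 was lower with alpha, and 1 was called so without deltaNp63alpha replicate 3. Leaving out 1 library moved the counts with beta between 3 and 7 higher, lowest without deltaNp63beta replicate 2, and between 3 and 7 lower, with 3 without vector replicate 2, 4 without deltaNp63beta replicate 1 or 3 and 5 without vector replicate 3. The 2 rises with the smallest adjusted p with beta lay at the TRAF3IP3 and BDKRB2 loci, as the plot of the tested neighbours by distance shows.

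At the TRAF3IP3 locus, C1orf74 rose with beta (log2 2.02 ± 0.09, adjusted p = 1.33e-08) and did not pass with alpha (0.24 ± 0.09, adjusted p = 0.0955). The difference between the isoforms passed as well (log2 1.78, adjusted p = 8.21e-08). HSD11B1, which interconverts cortisone and cortisol, fell with beta by 0.79 on the log2 scale (adjusted p = 0.0127), a call lost without vector replicate 2 (adjusted p = 0.0501). UTP25 did not pass against vector.

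BDKRB1, the B1 receptor for kinins, lies beside BDKRB2, 51.1 kb between start sites. It had 46.3, 47.8 and 56.7 in deltaNp63alpha, 169.1, 150.5 and 142.5 in deltaNp63beta and 27.95, 37.0 and 30.6 in vector. No 2 groups overlapped. It rose with deltaNp63beta (log2 2.24 ± 0.20, adjusted p = 4.30e-06) and was higher with beta than with alpha (log2 1.60, adjusted p = 1.03e-04). With deltaNp63alpha the difference was 0.65 ± 0.20 (adjusted p = 0.0482), a call that was lost without any 1 of 8 of the 9 libraries, vector replicate 2 being the exception (adjusted p up to 0.160). AL355102.2, which overlaps BDKRB2 and holds 421 of its words, had a log2 difference of 2.77 ± 0.97 with beta (adjusted p = 0.0396), lost without any of the 3 deltaNp63beta libraries or vector replicates 1 or 3 (adjusted p up to 0.127). ATG2B was not called.

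**Figure D3:**
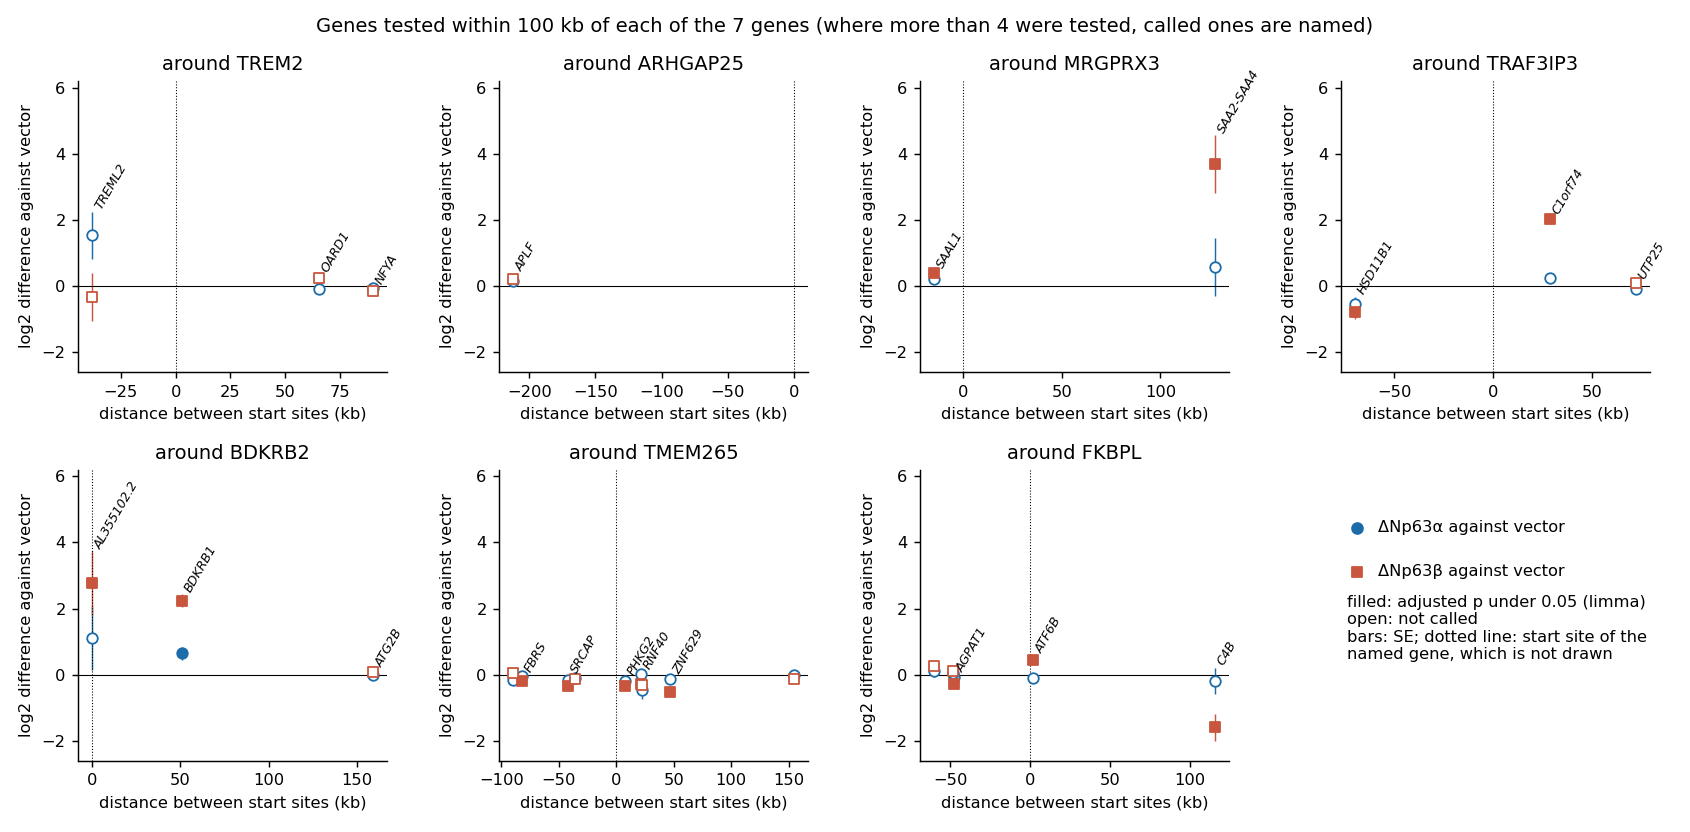
Log2 difference from vector (y axis, bars SE) of the 26 genes considered within 100 kb against the distance of their start site from that of the named gene in kb, positive downstream; circles are deltaNp63alpha, squares deltaNp63beta, and filled marks were called. With beta, SAA2-SAA4 near MRGPRX3, C1orf74 near TRAF3IP3, and AL355102.2 and BDKRB1 near BDKRB2 stand above a log2 difference of 2.

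Near MRGPRX3, SAAL1 rose with beta (log2 0.41 ± 0.07, adjusted p = 0.00112). SAA2-SAA4, a readthrough of serum amyloid A genes whose fragments can be split with them, was at 20.8 in deltaNp63beta and 0.913 in vector (log2 3.68 ± 0.88, adjusted p = 0.00575). Around TREM2, TREML2 had 13.7 in deltaNp63alpha, 3.30 in deltaNp63beta and 5.21 in vector and was not called, nor were OARD1 and NFYA against vector. APLF, the only tested gene near ARHGAP25, was not called.

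Around TMEM265, ZNF629 fell with beta by 0.52 on the log2 scale (adjusted p = 2.67e-04). SRCAP (log2 -0.35, adjusted p = 0.0411), PHKG2 (-0.34, adjusted p = 0.0213), RNF40 (-0.28, adjusted p = 0.0257) and FBRS (-0.18, adjusted p = 0.0246) were called lower as well. Each of these 4 calls was lost in a fit without some 1 library, which were deltaNp63beta replicate 3 or vector replicate 3 for PHKG2, these 2 or deltaNp63beta replicate 1 or vector replicate 2 for RNF40, and any of deltaNp63beta replicates 1 and 2 and vector replicates 2 and 3 for FBRS. For SRCAP the call was lost without any library except deltaNp63beta replicate 2 and vector replicate 3, and the highest adjusted p for the 4 genes were 0.161 for SRCAP, 0.0816 for PHKG2, 0.0910 for RNF40 and 0.0756 for FBRS. Near FKBPL, C4B, a complement gene with a near-identical copy beside it between which fragments can be split, fell with beta by 1.59 on the log2 scale (adjusted p = 0.00824). ATF6B had 0.45 ± 0.13 with beta (adjusted p = 0.0158; lost on leaving out replicate 2 or 3 of deltaNp63beta, with adjusted p up to 0.0610) and AGPAT1 -0.28 ± 0.09 (adjusted p = 0.0195; lost on leaving out replicate 1 or 3 of deltaNp63beta, or 1 or 2 of vector, with adjusted p up to 0.0761).

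Genes of the pathways around the 7 were set out by list. For TREM2 the partner that carries its signal, TYROBP, was listed at 0 in all 9 libraries. HCST, the other adaptor, averaged 1.03 in deltaNp63alpha, 0.579 in deltaNp63beta and 4.84 in vector. Of 17 genes of the TREM family and TREM2 signalling, 11 were tested. With deltaNp63alpha 3 were called higher and 1 lower (8.13% and 6.37% of all genes), and with deltaNp63beta 4 higher and 1 lower (21.8% and 19.5% of all genes). The lower genes were SYK with alpha (log2 -0.80, adjusted p = 0.0413) and PIK3R1 with beta (-0.21, adjusted p = 0.0137). SYK was higher with beta than with alpha (log2 1.22, adjusted p = 0.00209). Each call of a lower gene against vector was lost on leaving out some 1 library, vector replicate 3 among them in both comparisons, and the 1 with beta became 2 without deltaNp63beta replicate 3. The median log2 difference was 0.17 with alpha and 0.18 with beta, against -0.01 over all genes in both comparisons. INPP5D, the phosphatase SHIP1, averaged 990.1 in deltaNp63alpha, 991.1 in deltaNp63beta and 463.9 in vector and rose with both (log2 1.09 ± 0.08, adjusted p = 3.30e-06 with alpha and 7.83e-07 with beta). VAV3, an exchange factor for Rac, rose with alpha (log2 0.85, adjusted p = 0.00189) and with beta (1.68, adjusted p = 3.12e-06). CLU, the chaperone clusterin, rose with beta (1.53, adjusted p = 2.12e-05).

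In the kinin system, 14 genes besides BDKRB2 were listed and 10 tested. With deltaNp63alpha 2 were called higher and 1 lower (8.13% and 6.37% of all genes), and with deltaNp63beta 4 higher and 0 lower (21.8% and 19.5% of all genes). At an unadjusted limma p under 0.05, 0 were lower with beta as well. The 4 became 2 without deltaNp63beta replicate 1, deltaNp63beta replicate 2 or vector replicate 3, and the lower count became 1 without deltaNp63beta replicates 1 or 2 or vector replicates 1 or 2. With alpha the 2 became 1 on leaving out any library but vector replicate 2, and the 1 lower call was lost without deltaNp63alpha replicate 3 or vector replicates 1 or 3. The median was 0.00 with alpha and 0.09 with beta. F12, coagulation factor XII, which starts kinin release, rose with alpha (log2 0.38, adjusted p = 0.00942) and beta (0.68, adjusted p = 6.01e-05). BDKRB1 is part of this list and was given above. Of the 9 other Mas-related receptors and MAS relatives, 0 were tested and 5 were listed at 0 in every library, MRGPRX1 among them. MRGPRX4 had 0, 0.947 and 2.04 in deltaNp63alpha, 1.96, 10.2 and 9.79 in deltaNp63beta and 0 in all 3 vector libraries.

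Among 12 relatives of ARHGAP25, Rac genes and regulators of Rac, 11 were tested. With deltaNp63alpha 2 were called higher and 1 lower (8.13% and 6.37% of all genes), and with deltaNp63beta 2 higher and 4 lower (21.8% and 19.5% of all genes). The 2 higher became 1 without any of 7 libraries in each comparison, all but deltaNp63beta replicates 1 and 3 for alpha and all but deltaNp63alpha replicate 2 and vector replicate 3 for beta. The 1 lower with alpha became 2 without deltaNp63alpha replicate 1 or deltaNp63beta replicate 3. The median was -0.07 with alpha and -0.19 with beta. CHN1, a Rac GTPase-activating protein, fell with alpha by 0.97 and with beta by 1.00 on the log2 scale (adjusted p = 1.15e-04 with alpha and 2.60e-05 with beta). RAC2 rose with alpha (log2 0.51, adjusted p = 3.15e-05). With beta, SRGAP3 rose (1.299, adjusted p = 1.38e-04) and SRGAP1 fell by 0.58 (adjusted p = 2.60e-04).

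All 14 genes of the list of TRAF3 and its partners were tested. With deltaNp63alpha 0 were called higher and 1 lower (8.13% and 6.37% of all genes), and with deltaNp63beta 4 higher and 5 lower (21.8% and 19.5% of all genes), with a median of -0.05 with alpha and 0.07 with beta. At an unadjusted limma p under 0.05, 1 was higher with alpha, and 1 was called so without vector replicate 1. The 5 lower with beta became 3 without vector replicates 2 or 3. BIRC3, an inhibitor of apoptosis, fell with alpha by 1.25 (adjusted p = 2.28e-05). With beta it was called higher (log2 0.37 ± 0.11, adjusted p = 0.0217), a call lost without deltaNp63beta replicates 1 or 3 or vector replicates 1 or 2 (adjusted p up to 0.0818), and the difference of beta against alpha passed (log2 1.62, adjusted p = 1.50e-06). The viral RNA sensors IFIH1 (log2 0.96, adjusted p = 2.46e-05) and RIGI (0.92, adjusted p = 2.08e-04) rose with beta, as did TRAF3IP2 (0.73, adjusted p = 1.48e-04), while MAP3K14 fell by 0.56 (adjusted p = 9.81e-04).

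All 14 co-chaperones of HSP90 and partners of FKBPL were tested as well. With deltaNp63alpha 3 were called higher and 1 lower (8.13% and 6.37% of all genes), and with deltaNp63beta 8 higher and 3 lower (21.8% and 19.5% of all genes), with a median of 0.04 with alpha and 0.19 with beta. The 3 higher with alpha became 1 without vector replicate 3. FKBP5, a co-chaperone of steroid receptors, fell with alpha by 0.50 (adjusted p = 1.92e-05) and with beta by 0.16 on the log2 scale (adjusted p = 0.0134). CD44 rose with alpha (log2 0.39, adjusted p = 1.67e-04) and with beta (0.42, adjusted p = 2.72e-05), and the difference between the isoforms was 0.03 ± 0.05 (adjusted p = 0.646). FKBP4 rose with beta (log2 0.48, adjusted p = 4.28e-06), and its call with alpha (0.14, adjusted p = 0.0413) was lost without any 1 vector library, as well as without deltaNp63alpha replicate 1, deltaNp63alpha replicate 3 or deltaNp63beta replicate 2 (adjusted p up to 0.141). With beta CDC37 fell by 0.44 (adjusted p = 1.17e-05). CDKN1A, the cell cycle inhibitor p21, fell with beta by 0.56 (adjusted p = 4.75e-05). The plot of the pathway genes shows that the members of each list lay on both sides of 0.

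**Figure D4:**
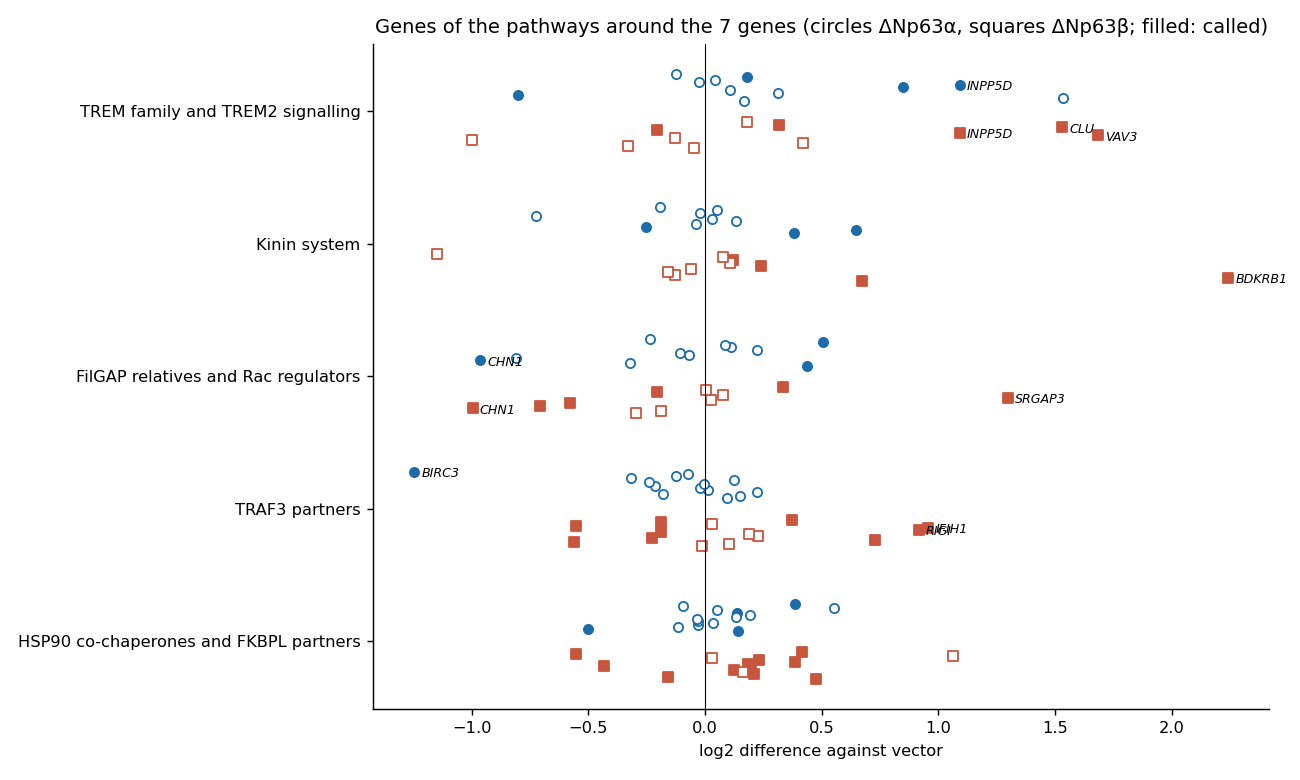
Log2 difference from vector (x axis) of tested genes in the 5 lists with tested members (y axis); circles are deltaNp63alpha, squares deltaNp63beta, and filled marks were called. With beta, BDKRB1 (2.24), VAV3 (1.68) and CLU (1.53) lie furthest to the right.

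Markers of the cell types these genes are best known from were set beside them. The sum of 12 myeloid markers was 1305 to 1650 in deltaNp63alpha, 1253 to 1371 in deltaNp63beta and 1874 to 2092 in vector, lower in every isoform library than in every vector library. Of the 12, 5 were tested, 0 were called higher and 2 lower with deltaNp63alpha (8.13% and 6.37% of all genes), and 2 higher and 3 lower with deltaNp63beta (21.8% and 19.5% of all genes). With alpha 0 were higher at an unadjusted limma p under 0.05 as well. Leaving out 1 library at a time left these 4 counts as they were. The 2 with the highest vector means, CD68 and ITGB2, were called lower with both isoforms. CD68 averaged 842.3 in deltaNp63alpha, 610.9 in deltaNp63beta and 1111 in vector. ITGB2 averaged 285.6 in deltaNp63alpha, 148.5 in deltaNp63beta and 543.2 in vector. With beta CSF1R was called lower too, and CD14 and LAPTM5 higher. CD14 averaged 19.1 in deltaNp63alpha, 170.3 in deltaNp63beta and 23.6 in vector. TYROBP and AIF1 were listed at 0 in all libraries, and PTPRC averaged 1.32 in deltaNp63alpha, 0.775 in deltaNp63beta and 3.19 in vector. The sum of 8 lymphocyte markers lay between 0 and 3.45 in deltaNp63alpha, 1.59 and 8.09 in deltaNp63beta and 0.995 and 4.42 in vector. The sum of 6 sensory neuron markers was 100.4 to 153.0 in deltaNp63alpha, 71.6 to 94.9 in deltaNp63beta and 81.2 to 113.4 in vector, with SCN10A and CALCA at 0 in all libraries. The 8 epithelial markers, TP63 with its transgene included, summed to between 128600 and 133000 in deltaNp63alpha, 247600 and 264100 in deltaNp63beta and 73980 and 78800 in vector. KRT5 alone averaged 92600 in deltaNp63alpha, 147000 in deltaNp63beta and 55460 in vector. All 8 were tested, and TP63 was called higher with both isoforms, which the transgene sets by design. With deltaNp63alpha 6 were called higher and 1, KRT8, lower (8.13% and 6.37% of all genes). With deltaNp63beta 7 were called higher and 0 lower (21.8% and 19.5% of all genes). KRT8 did not pass with beta (log2 0.03, adjusted p = 0.618).

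To place the 7 genes, all tested genes with a vector mean below 10 and an isoform mean of at least 50 were listed. These limits were chosen after values were seen, and the list is a description. Of 548 tested genes with such a vector mean, 21 (3.83%) reached 50. Of these, 3 did so with both isoforms, 2 with deltaNp63alpha alone and 16 with deltaNp63beta alone. The filter needs 3 or more libraries at 10 or above, which the vector libraries alone cannot give at a mean below 10. Each of the 548 therefore had at least 1 isoform library at 10 or above. Genes that stayed low in every group are left out, so 3.83% is not the share of all near-silent genes that rose. FKBPL counts as reached with both only through deltaNp63alpha replicate 1, without which 2 genes reached 50 with both, 2 with deltaNp63alpha alone and 17 with deltaNp63beta alone. On leaving out other libraries the list held 20 to 27 genes, 27 without deltaNp63beta replicate 1, and those with deltaNp63alpha alone were 1 to 3 and with both 2 to 4. The 21 hold 6 of the genes described, and BDKRB2 is not among them. The level was higher with beta than with alpha for 17, and higher with alpha for TREM2, ARHGAP25, MRGPRX3 and FOLR3. The others raised with beta include genes of squamous differentiation, SPRR1B at 103.1 in deltaNp63beta and 1.62 in vector and SERPINB3 at 148.1 in deltaNp63beta and 2.64 in vector. The share of words also found in other genes was 63.6% for SERPINB3 and 10.7% for SPRR1B. TMEM265 was the 1 of the 20 with a GENCODE 29 transcript for which at least 95% of words were shared (5.0%, against 1.45% of tested genes).

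**Figure D5:**
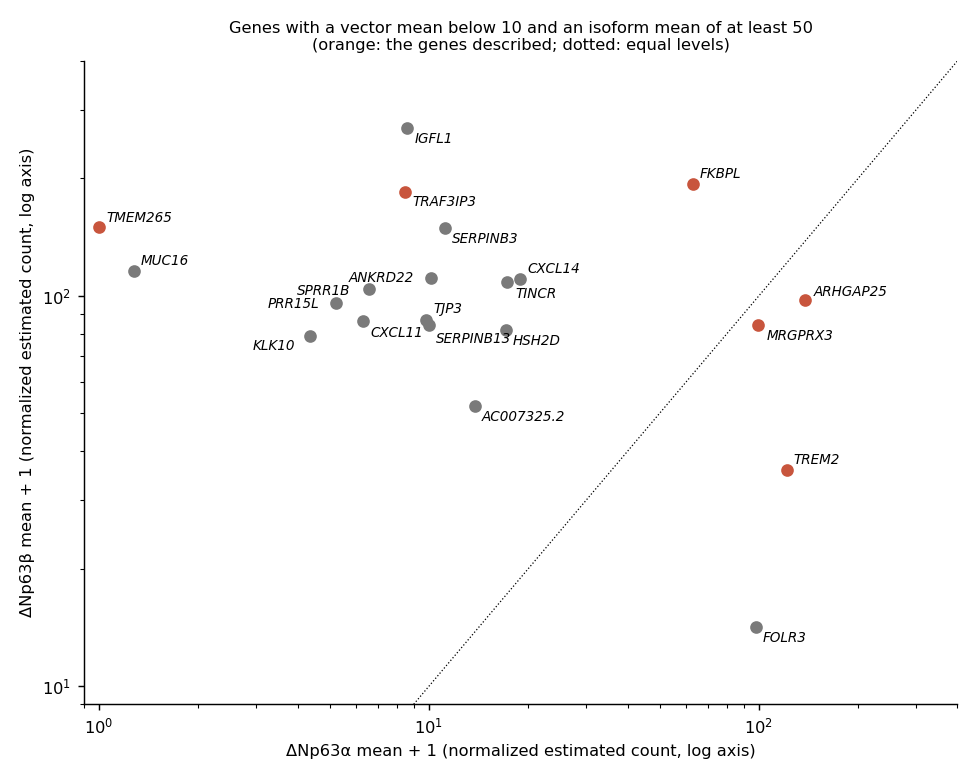
Mean level + 1 with deltaNp63alpha (x axis, log) and deltaNp63beta (y axis, log) of the 21 tested genes with a vector mean below 10 and an isoform mean of at least 50; orange points are among the genes described and the dotted line marks equal levels. TREM2, ARHGAP25 and MRGPRX3 lie below the line with FOLR3, and the other 17 lie above it.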

How the data were processed

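Poly(A) RNA was measured in 9 libraries of MCF10A cells, 3 per group. The deposited signal is taken to be an estimated count per gene scaled between libraries. Per the submitters' processing notes the authors used kallisto 0.46.2, build GRCh38 and DESeq2 (version not given). Which step gave the numbers is not given in the sources used here. Between 59.95% and 63.46% of low values (up to 20 steps) were within 0.1 step of a whole multiple of a library's step, so reads were not recovered and no count test was run. limma 3.58.1 in R 4.3.3 (trend, robust) was fitted to log2(value + 1) of 15108 genes over all 9 libraries with a coefficient per group, and tested on simulated data. Tables and plots were made with matplotlib 3.10.9, numpy 2.4.6 and pandas 2.3.3 under Python 3.11.15. Symbols were matched for 30328 IDs, and 35377 IDs were in GENCODE 29, which need not be the annotation the authors used. The members and lists were chosen with earlier results of these data known. With the exception of a result not reported here, the text names the 7 genes, called neighbours within 100 kb, up to 4 called genes per list and comparison by adjusted p, the 3 closest genes by correlation and TP63, and a few others chosen after values were seen.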

Additional observations from a re-analysis of the deposited data

How the results depend on the processing

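The number of genes called with deltaNp63alpha against vector was 1229 higher and 963 lower, and the lower count was 641 and 640 without vector replicates 2 and 3; the cause was not tested. Leaving out 1 library gave 920 to 1239 higher and 640 to 1022 lower for deltaNp63alpha against vector, 2813 to 3268 and 2437 to 2872 for deltaNp63beta against vector, and 2067 to 2546 and 1800 to 2270 for deltaNp63beta against deltaNp63alpha. Other scalings, filters, the pseudocount of 0.1 and the fit of only the groups compared stayed within 1.5 times. Replicate numbers did not show pairing, with residual correlations of -0.12 to 0.08 for the same number and -0.14 to 0.12 for different numbers, and 2 of 9 libraries closest to their own number. With the replicate block, 1053 higher and 780 lower were called for deltaNp63alpha against vector, 3121 and 2818 for deltaNp63beta against vector and 2435 and 2148 for deltaNp63beta against deltaNp63alpha; it lost 11 of the 103 calls of neighbouring and listed genes. Of these calls, 61 were kept under every alternative and 42 were lost under at least 1. The sums chosen after seeing the data had the opposite sign to the gene alone in 2 contrasts, both within their SE of 0. These were FKBPL with the opposite ID, deltaNp63beta against deltaNp63alpha, at -0.011 ± 0.126, and TMEM265 with the overlapping genes, deltaNp63beta against vector, at -0.05 ± 0.115. The sum with TMEM265 is made mostly of the larger genes. TMEM265 did not pass the filter without a deltaNp63beta library, so no value is given there. Values are normalized and carry no counting interval, and genes with a value under 10 rest on few fragments.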
